A study of Mus musculus with 4 samples.

Results

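Principal cells of the kidney collecting duct take up sodium through the epithelial sodium channel and water through aquaporins. The nuclei described here carried transcripts of the sodium channel but little *Aqp3*, which encodes the water channel of the basolateral membrane. They were chosen by UMI counts (unique molecular identifiers, each standing for 1 captured RNA molecule) in single-nucleus RNA-seq of mouse kidney tissue enriched for medulla. A nucleus was selected on at least 2 UMIs of *Frmpd4*, at least 1 UMI of *Scnn1b* and *Scnn1g* together, at most 1 UMI of *Aqp3*, and at most 2 UMIs each of *Slc8a1*, *Slc12a1* and *Slc12a3*, which mark the connecting tubule, the thick ascending limb and the distal convoluted tubule. The rule was met by 178 of 27343 nuclei kept, or 0.651%. These 7 genes chose the nuclei, so their levels are a description and not a result.

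The mice were 12-week-old males, and the cortex had been trimmed from their kidneys to enrich the medulla. The 2 knockout mice were *Hoxb7Cre+;Tfap2a fl/fl* and the 2 control mice were Cre-negative littermates that carried the same floxed *Tfap2a* alleles. Each mouse gave 1 library, and 55.1% of all nuclei kept met the rule for proximal tubule. *Hoxb7Cre* is active in the ureteric lineage that forms the collecting duct, so proximal tubule nuclei of the knockout mice are not a target of the deletion. Control and knockout mice also differ in the presence of the Cre transgene, and its part in any difference cannot be told apart from that of the deletion.

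The collecting duct is a mixed epithelium. Principal cells carry the sodium channel, whose beta and gamma subunits are encoded by *Scnn1b* and *Scnn1g*, and the apical water channel *Aqp2*, which moves to the membrane under vasopressin. Intercalated cells lie between them and move acid or base with a proton pump, whose kidney subunits include *Atp6v1g3* and *Atp6v0d2*, and with anion exchangers such as *Slc4a1* and *Slc4a9*. The connecting tubule, which joins the distal convoluted tubule to the collecting duct, has both the sodium channel and the calcium handling genes *Slc8a1* and *Calb1*. *Tfap2a* encodes AP-2 alpha, a transcription factor of the ureteric lineage.

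The sodium channel subunits give the nuclei their name, and their promoters are shown because AP-2 factors bind a palindromic motif, GCCNNNGGC, which reads the same on both strands. *Scnn1g* and *Scnn1b* lie near each other on the plus strand of chromosome 7. The sequences below are those of RefSeq on GRCm38.p6, from 250 bases before the start that the table gives to 50 bases after it, in lower case, with capitals kept for the motif.
Scnn1g, chr7:121734229-121734528: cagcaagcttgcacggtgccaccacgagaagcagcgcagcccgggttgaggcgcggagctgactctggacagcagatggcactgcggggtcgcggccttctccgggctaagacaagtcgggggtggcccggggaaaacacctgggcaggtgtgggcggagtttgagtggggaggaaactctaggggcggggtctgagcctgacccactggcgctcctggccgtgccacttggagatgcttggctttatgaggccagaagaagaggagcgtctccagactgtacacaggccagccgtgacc
Scnn1b, chr7:121864788-121865087: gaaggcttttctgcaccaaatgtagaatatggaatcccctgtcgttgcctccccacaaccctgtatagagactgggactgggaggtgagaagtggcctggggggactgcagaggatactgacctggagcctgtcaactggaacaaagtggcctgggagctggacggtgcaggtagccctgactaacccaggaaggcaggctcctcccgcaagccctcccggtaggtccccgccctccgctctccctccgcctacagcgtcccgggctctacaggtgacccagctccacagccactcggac
Neither window held the motif, and so no capitals appear. Of the 6 genes that mark these nuclei, 5 had a promoter in the table and 0 of these held it. The motif was present in 16.6% of all 32851 promoters and in 29.4% of the 6163 promoters of genes tested in these nuclei. An absent match says only that these letters are not in these windows.

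**Figure D1:**
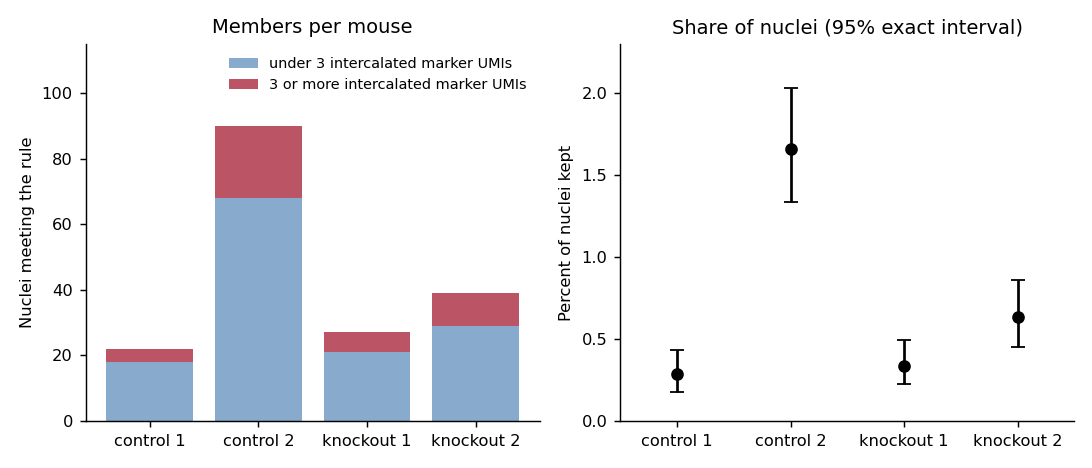
Left, the number of nuclei that met the rule in each mouse, divided into nuclei with under 3 and with 3 or more UMIs of the intercalated markers. Right, the share of all nuclei kept, in percent, with its 95% exact binomial interval. Control 2 gave 90 of the 178 nuclei and stands above the other mice at 1.66%.

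The nuclei were spread unevenly over the mice. Control 1 had 22 of 7738 nuclei kept (0.284%, 95% exact binomial interval 0.178 to 0.43), control 2 had 90 of 5430 (1.66%, 1.33 to 2.03), knockout 1 had 27 of 7998 (0.338%, 0.223 to 0.491) and knockout 2 had 39 of 6177 (0.631%, 0.449 to 0.862). Both knockout mice thus lay between the control mice, and the groups overlapped. The log2 ratio of the mean shares, knockout over control, was -1.0, with an exact two-sided permutation p of 1. With 2 mice against 2 such a test cannot give a p below 0.333. Without control 2 the ratio was 0.77, so the lower mean of the knockout mice rested on the high share in 1 control mouse. The intervals cover counting error only, and 1 library was made per mouse.

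The depth behind the nuclei was low. Their summed UMIs were 51524 and 273640 in controls and 60939 and 97962 in knockouts, and control 2 held 50.6% of the nuclei. The median nucleus had 2410 UMIs, against 3173 in the 271 *Aqp3*-positive nuclei. The latter had a sodium channel UMI, at least 2 *Aqp3* UMIs and the same limits on *Slc8a1*, *Slc12a1* and *Slc12a3*. They had no limit on *Frmpd4*, which was detected in 85.2% of them, so the classes also differ by this choice. Mitochondrial UMIs of the selected nuclei had medians of 1.48% and 0.568% in controls and of 1.16% and 0.316% in knockouts. Doublets were called for 1, 5, 7 and 2 of the nuclei in control 1, control 2, knockout 1 and knockout 2, or 25.9% in knockout 1. No barcode of these nuclei was shared between libraries (0 of 178).

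The label of principal cells held for most of the nuclei but not for all of them. Of the 178 nuclei, 42 (23.6%) carried 3 or more UMIs over 9 markers of intercalated cells, and the other 136 carried fewer, 123 of them none. The 42 nuclei came from every mouse, with 4 of 22 in control 1 (18.2%), 22 of 90 in control 2 (24.4%), 6 of 27 in knockout 1 (22.2%) and 10 of 39 in knockout 2 (25.6%). They had a median of 16 intercalated UMIs, up to 68, and a median of 1 UMI over 8 principal cell markers. By contrast the 136 nuclei had a median of 11 principal UMIs, and 130 of them had 3 or more. Doublets were called for 2 of the 42 nuclei and for 13 of the 136. Such nuclei were not particular to the *Aqp3*-low rule. In the *Aqp3*-positive class 31 of 271 nuclei (11.4%) had 3 or more intercalated UMIs. Among nuclei that met the rule for connecting tubule, 6.94% of 605 did. The division into 42 and 136 was made after the values were seen and uses the cells' own readout, so what follows on it is a description with no test.

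**Figure D2:**
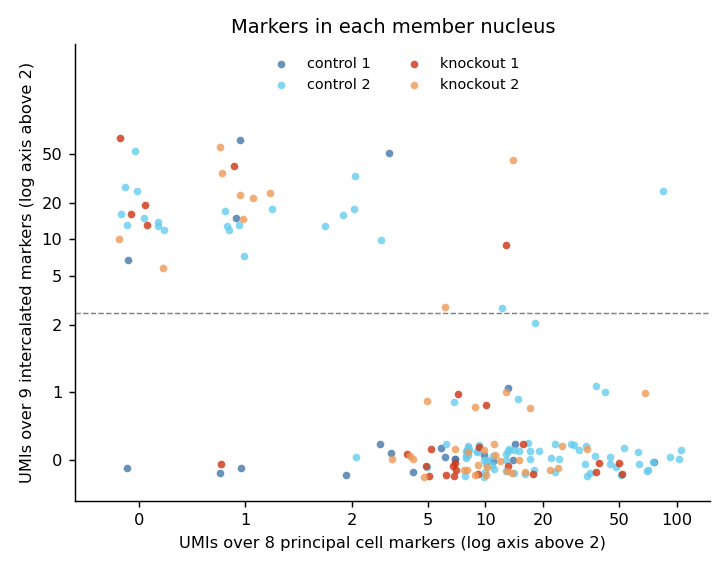
Each point is 1 of the 178 nuclei, placed by its UMIs over 8 principal cell markers and over 9 intercalated markers, on axes that are logarithmic above 2. Most nuclei lie along the principal axis with no intercalated UMI, and 42 lie at 3 or more intercalated UMIs, 16 of these with no principal UMI.

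The 42 nuclei carried the genes of acid and base transport. *Atp6v1g3* was detected in 95.2% of them and *Atp6v0d2* in 88.1%, against 5.15% and 0.735% of the 136 and, for *Atp6v1g3*, 4.55% of proximal tubule nuclei. The exchanger *Slc4a9* was detected in 78.6% against 0%, the receptor *Kit* in 66.7% against 0%, and *Foxi1*, the transcription factor of intercalated cells, in 50% against 0%. A count of 0 in 136 nuclei allows a share of nuclei with a UMI of up to 2.21%, which is no limit on the nuclei that express a gene. These genes belong to the list that made the division. Genes outside it differed along the same division. *Aqp2* was detected in 19.0% of the 42 nuclei and in 90.4% of the 136, *Fxyd4*, a regulator of the sodium pump, in 11.9% and 83.8%, and *Hsd11b2*, the enzyme that shields the mineralocorticoid receptor from glucocorticoids, in 14.3% and 77.2%. Median depths were 2667 and 2232 UMIs, so the lower detection was in the deeper nuclei. *Scnn1a*, the alpha subunit of the channel, which the rule did not use, was detected in 54.8% of the 42 and 49.3% of the 136.

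The genes named as markers of these nuclei divided in the same way. *Mgat4c*, which encodes a glycosyltransferase and lies on chromosome 10 (101681487 to 102391851, GRCm38.p6), was at 144 CPM (the UMIs of a gene per 1000000 UMIs of the same nuclei) in the 42 nuclei and at 1264 CPM in the 136. *Col26a1*, a collagen gene, was at 22.7 and 446 CPM. *Kif26b*, a kinesin gene, was detected in 38.1% and 66.2% of them. *Frmpd4*, the gene that led the rule, on chromosome X (167471306 to 168577241), was at 1697 CPM in the 42 against 3536 in the 136. The sodium channel was thinner, and 33 of the 42 nuclei (78.6%) had entered on a single sodium channel UMI, against 45 of the 136 (33.1%). Levels in CPM are compared here between nuclei for 1 gene at a time.

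*Frmpd4* was not restricted to principal cells. Over all nuclei kept, 771 had 3 or more intercalated UMIs, at a median depth of 2427 UMIs. Of these, 347 (45.0%) had a UMI of *Frmpd4* and 266 (34.5%) at least 2, while 223 (28.9%) had a UMI of *Scnn1b* or *Scnn1g*. For comparison, a single UMI of *Frmpd4* was found in 3.05% of 15061 proximal tubule nuclei and of *Scnn1b* in 0.604%, at a median depth of 3125 UMIs. Proximal tubule cells should lack both genes, so these shares are a background level, and free RNA and doublets as its source were not told apart.

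*Alcam*, which encodes a cell adhesion molecule and lies on chromosome 16 (52248996 to 52453081), followed the intercalated markers. It was detected in 95.2% of the 42 nuclei, at 1818 CPM, and in 18.4% of the 136, at 162 CPM. The 42 nuclei held 80.8% of its UMIs. Detection was 20.7% in the *Aqp3*-positive nuclei and 12.2% in proximal tubule nuclei at median depths of 3173 and 3125 UMIs. *Gpc5*, a proteoglycan gene, went the other way, with UMIs in 90 of the 136 nuclei and in 0 of the 42, which allows up to 7.14% of nuclei with a UMI.

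**Figure D3:**
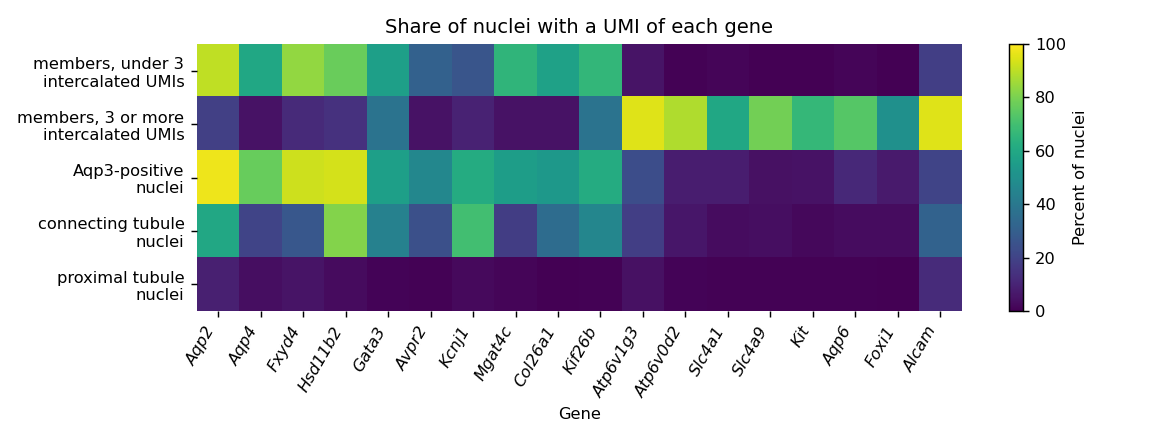
Share of nuclei, in percent, with at least 1 UMI of each gene, by class of nuclei. The *Aqp3*-low nuclei are divided at 3 intercalated UMIs, and *Aqp2* reaches 90.4% of those under 3, 19.0% of those with 3 or more and 97.4% of the *Aqp3*-positive nuclei.

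The number of sodium channel UMIs also divided the nuclei. Those with at least 2, 100 in all, had *Mgat4c* at 1606 CPM against 293 in the 78 with 1, *Hsd11b2* at 1121 against 352, and *Kcnj1*, the apical potassium channel ROMK, at 232 against 33.5. *Pappa*, a metalloproteinase gene, was at 893 against 130 CPM and *Rbfox1*, a splicing factor gene, at 1985 against 318. *Aqp2* was similar, at 2609 against 2559 CPM, and the water channel gene *Aqp4* was lower, at 579 against 833. This division overlaps the one above, since 33 of the 78 nuclei belong to the 42. Among the 136 nuclei *Mgat4c* was at 1723 CPM with at least 2 channel UMIs against 521 with 1, and *Hsd11b2* at 1213 against 543. There *Aqp2* went the other way, at 2880.5 against 4137.5, as did *Aqp4* at 652 against 1369 and *Fxyd4* at 1447 against 1831. The division uses counts of genes in the rule itself, so these levels are a description with no test. In control 2, 46 of 90 nuclei had a single channel UMI, against 8 of 22, 12 of 27 and 12 of 39 in control 1, knockout 1 and knockout 2. Near the limits of the rule, 16 nuclei had *Frmpd4* at 2, and 28 that missed only on *Frmpd4* had it at 1. *Aqp3* was at 0 in 113 nuclei and at 1 in 65, while 37 nuclei missed with 2 and 185 with 3 or more. *Aqp2* followed *Aqp3* across this limit, with 1521 CPM at 0 *Aqp3* UMIs, 4265 at 1, 5371 at 2 and 8455 at 3 or more. These are levels over groups of nuclei and cannot show whether the nuclei form 1 range or separate groups. *Aqp3* had a UMI in 9 of the 42 nuclei with intercalated markers, so most of these lie at 0 *Aqp3* UMIs.

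Set beside the *Aqp3*-positive nuclei of the same mice, the *Aqp3*-low nuclei had lower detection of most principal cell genes, but not of *Gata3*. *Aqp2* was detected in 73.6% against 97.4%, and in 67.5% against 95.1% after each nucleus was thinned to 1500 UMIs, which left 160 and 245 nuclei. *Hsd11b2* was detected in 62.4% against 93.7%, *Fxyd4* in 66.9% against 92.3% and *Aqp4*, a basolateral water channel, in 46.6% against 76.8%. Thinned, these were 55% and 89.0%, 61.9% and 91.8%, and 41.9% and 68.6%. *Gata3*, a transcription factor of the collecting duct, was detected in 38.1% and 37.6% thinned. These shares include the 42 nuclei, and without them *Aqp2* was detected in 90.4%, *Fxyd4* in 83.8%, *Hsd11b2* in 77.2% and *Aqp4* in 59.6% before thinning. In proximal tubule nuclei *Aqp2* was detected in 8.74%, or 4.73% thinned, *Hsd11b2* in 2.94%, *Fxyd4* in 5.10% and *Aqp4* in 3.69%. *Mgat4c* was detected in 51.1% and 55.7%. Of the connecting tubule genes outside the rule, *Trpv5*, the apical calcium channel, was detected in 0.562% of the 178 nuclei, *Egfem1* in 7.30%, *Klk1* in 10.1%, *Calb1* in 21.3% and *S100g* in 22.5%. In connecting tubule nuclei these shares were 35.5%, 70.1%, 48.9%, 87.6% and 85.5%, and in proximal tubule nuclei 0.12%, 1.31%, 8.71%, 6.93% and 28.5%.

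Genes were then ranked by the log2 ratio of *Aqp3*-low over *Aqp3*-positive nuclei among 3391 genes, of which 650 were higher and 705 lower in all 4 mice. The genes at the top came from the 42 nuclei. *Clnk*, an adaptor of immunoreceptor signaling, had a log2 ratio of 3.48 and *Adgrf5*, an adhesion receptor, one of 3.33, and without the 42 nuclei these were -1.05 and -1.49. Once the 42 were left out, *Rbfox1* led with 1.67. *Plppr1* with 1.37 and *Mgat4c* with 1.24 came further down the ranking. *AI838599*, *Lyst* and *Ppp2r2b* ranked between *Rbfox1* and *Plppr1*, and *Il15*, *Tmtc1*, *Cacnb4* and *Cadps2* between *Plppr1* and *Mgat4c*. The 42 were left out of the *Aqp3*-low nuclei only, and *Aqp3*-positive nuclei with intercalated markers stayed in. Ratios of intercalated genes without the 42 are therefore not balanced between the classes. On the lower side *Slc26a4* then led with -4.54, followed by *Atp6v1g3* with -3.91, *Slc4a9* with -3.63 and *Atp6v0d2* with -3.23. Some lower genes of the ranking with the 42 included depended less on the division. *Cited4*, a transcriptional coactivator, was at -2.28 (-2.11 without the 42), *Npy*, neuropeptide Y, at -2.0 (-1.67), *Hsd11b2* at -1.89 (-1.53), *Kcnj1* at -1.84 (-1.52) and *Spp1*, osteopontin, at -1.75 (-1.74). The *Aqp3*-low rule itself orders these classes, so these ratios describe them and carry no test.

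*Tfap2a*, the targeted gene, was read first in the comparison of genotypes. The *Aqp3*-low nuclei held 4 and 36 *Tfap2a* UMIs in controls and 6 and 8 in knockouts, which is 77.6 and 132 CPM against 98.5 and 81.7 CPM. The groups overlapped, and the log2 fold change, knockout over control, was -0.36 ± 0.59 (SE). In the *Aqp3*-positive nuclei it was -0.90 ± 0.41 (edgeR, unadjusted p = 0.0465, adjusted p = 0.9996). There 465 of 9860 genes had an unadjusted p under 0.05. The deletion removes exons 5 and 6, and UMIs of a 3' library that lie outside them do not check it. *Tfap2b*, which encodes the related factor AP-2 beta, had 8 and 19 UMIs in controls and 7 and 15 in knockouts, at 0.51 ± 0.59.

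Across all genes the comparison called 0 of 7947 genes tested (0%) at an adjusted p under 0.05 with edgeR's quasi-likelihood test. DESeq2 called 1 gene higher and 0 lower. At an unadjusted p under 0.05, 116 genes lay lower in knockouts (1.46%) and 96 lay higher (1.21%), and the smallest adjusted p was 0.234. In 1163 genes both knockout values lay below both control values (14.6%), and in 1185 they lay above (14.9%). Without the 42 nuclei 0 of 6642 genes were called, with 94 lower and 54 higher at an unadjusted p under 0.05. For this comparison the genes named from here on are those of a fixed rule, and none of them passed the adjustment in the edgeR test above.

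*Wnt9b*, a signal of the ureteric epithelium to the mesenchyme, had 6 and 10 UMIs in controls and 3 and 7 in knockouts, at a log2 fold change of 0.08 ± 0.74. In the *Aqp3*-positive nuclei of these mice it had 18 and 44 against 6 and 3 UMIs, at -2.07 ± 0.46 (unadjusted p = 0.000499, adjusted p = 0.558). The test of the difference between the classes gave 2.13 (unadjusted p = 0.0236, adjusted p = 1). *Alcam* had 42 and 169 UMIs against 36 and 50, at -0.36 ± 0.50, and without the 42 nuclei at 0.08. In CPM both knockout mice lay below both controls, at 591 and 510 against 815 and 618, as in 14.6% of all genes tested. The marker genes overlapped between groups, with 0.63 ± 0.69 for *Mgat4c*, 0.25 ± 0.55 for *Col26a1* and -0.19 ± 0.51 for *Kif26b*.

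The genes with the smallest p on the higher side were mostly genes of the 42 nuclei, often of 1 nucleus. The rule takes genes whose groups did not overlap in CPM, so this holds for each of them. *S100g*, which encodes the calcium binding protein calbindin-D9k, had 9 and 14 UMIs in controls and 79 and 64 in knockouts, at 3.39 ± 0.66 (adjusted p = 0.264). Single nuclei held 62 of the 79 and 46 of the 64, and the 42 nuclei 78.3% in all. Without the 42 the change was 1.16 ± 0.74. *Clu*, clusterin, a secreted chaperone, had 0 and 2 against 10 and 18 UMIs, a ratio of 28.6 with a 95% exact counting interval of 7.22 to 248 (adjusted p = 0.234), and 17 of the 18 came from 1 nucleus. That nucleus of knockout 2 also held 57 of the 61 UMIs of *Klk1*, tissue kallikrein, as well as 46 of *S100g*, and it had 45 intercalated UMIs and was not called a doublet. *Kctd16* had 0 and 1 against 30 and 3 UMIs, 26 of them in 1 nucleus. *Atp6v1g3* had 15 and 77 against 63 and 75 UMIs, at 1.64 ± 0.51, with 97% of its UMIs in the 42. *Malrd1* and *Trpm3* had 97.1% and 94.9% of theirs there.

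**Figure D4:**
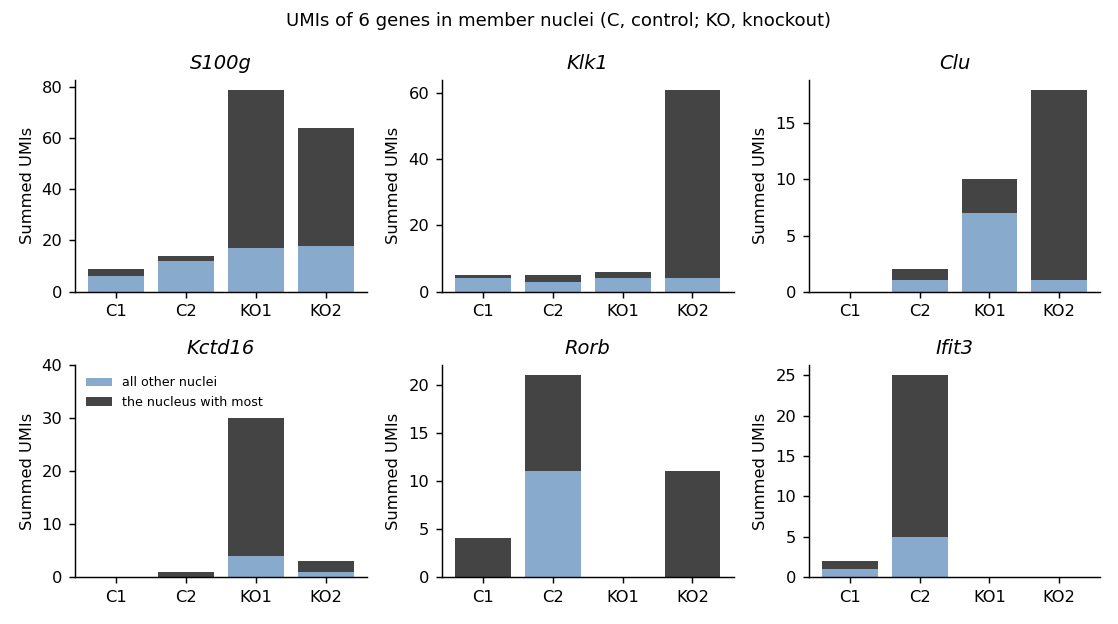
Summed UMIs of 6 genes in the *Aqp3*-low nuclei of each mouse, with the part that comes from the nucleus with most UMIs of the gene set apart. For *S100g*, 62 of 79 UMIs in knockout 1 and 46 of 64 in knockout 2 come from 1 nucleus each.

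Among the genes with the smallest p, *Per2*, *Tef*, *Dbp* and *Npas2* are known from the circadian clock. No list of clock genes was fixed, so no count over such genes is given. *Per2*, a repressor of the clock, had 0 and 2 UMIs in controls and 4 and 14 in knockouts, with at most 2 in any nucleus, at a log2 fold change of 3.96 ± 0.94. *Tef* and *Dbp*, factors of clock output, had 2 and 9 against 9 and 23 UMIs (2.47 ± 0.62) and 1 and 1 against 3 and 11 UMIs (3.51 ± 1.01). *Npas2*, an activator of the clock, had 3 and 25 against 0 and 1 UMIs, a ratio of 0.0731 with an exact counting interval of 0.00179 to 0.442. All 4 had an adjusted p of 0.999. They also kept their sign without the 42 nuclei, at 3.67, 2.68, 4.14 and -3.22. The other classes come from the same mice and are no independent evidence. There *Per2* was at 2.38 in *Aqp3*-positive, 2.25 in connecting tubule and 1.45 in proximal tubule nuclei, *Tef* at 1.26, 0.84 and 0.27, *Dbp* at 2.39, 2.38 and 0.74, and *Npas2* at -1.78, -2.76 and -1.14.

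**Figure D5:**
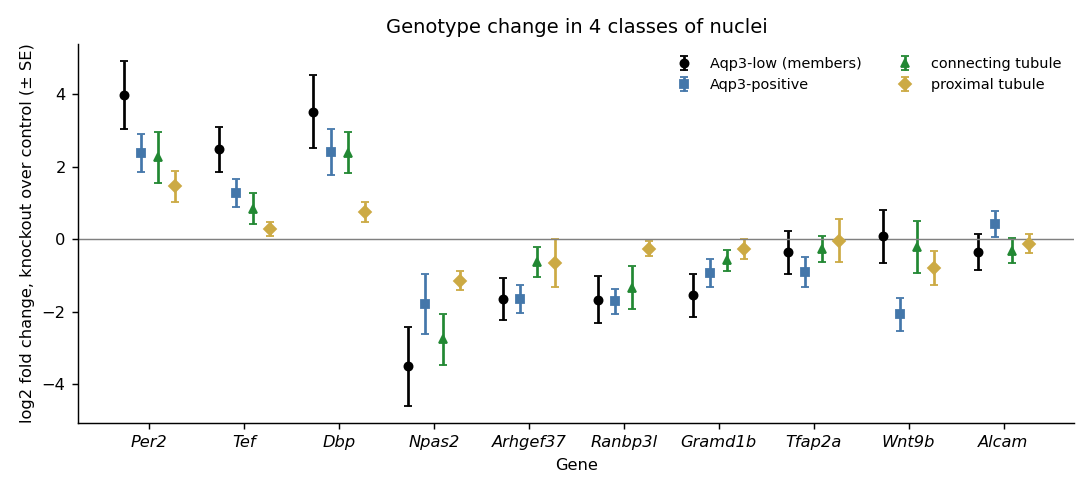
Log2 fold change, knockout over control, with its SE, for selected genes in 4 classes of nuclei from the same mice. *Per2* lies above 0 and *Npas2* below 0 in every class, at 3.96 and -3.50 in the *Aqp3*-low nuclei.

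On the lower side most genes had few UMIs and none or 1 in each knockout mouse. *Lpl*, lipoprotein lipase, had 2 and 16 UMIs against 0 and 0 (exact counting interval of the ratio 0 to 0.465). In proximal tubule nuclei *Lpl* was at 301 and 682 CPM in controls and at 130 and 75.2 CPM in knockouts, at -2.27 (unadjusted p = 0.00215). *Ift140*, a ciliary transport gene whose loss gives cystic kidneys, had 3 and 14 against 0 and 0 (interval 0 to 0.496). *Rcan1*, an inhibitor of calcineurin, had 3 and 13 against 0 and 0 (interval 0 to 0.531). These intervals pool the mice of each group and cover counting error only, not the spread between mice. *Ifit3*, an interferon response gene, had 2 and 25 against 0 and 0, but 20 of the 25 lay in 1 nucleus of control 2. *Slc40a1*, the iron exporter ferroportin, had 5 and 24 against 1 and 1 UMIs. *Keg1* was the most abundant of them, with 36 and 166 against 7 and 27 UMIs, at -1.66 ± 0.54, and was at 0.07 in *Aqp3*-positive and -1.20 in proximal tubule nuclei. Of these UMIs, 24 of the 36 and 47 of the 166 lay in 1 nucleus each that was called a doublet, and *Keg1* was at 2148 to 6515 CPM in proximal tubule nuclei. *Egfros* and *Snhg11* were at -3.46 and -2.45.

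Lists of functional genes had medians within the quartiles of all genes, -0.43 and 0.43, around a median of -0.01. Over all 7947 genes tested, 3997 were below 0 and 3950 above. Of 28 Wnt signaling genes tested, 20 were below 0 and 8 above, with 0 at an unadjusted p under 0.05 and a median of -0.26. Of 11 genes of water transport and vasopressin, 7 were below 0 and the median was -0.09. Of 23 genes of the sodium channel and aldosterone response the median was -0.04, and 1 had an unadjusted p under 0.05. This was *Usp2*, a deubiquitinase whose own transcription follows the clock, with 3 and 4 against 3 and 14 UMIs, at 2.02. Of 28 adhesion genes 14 were below and 14 above 0, and *Cdh3*, P-cadherin, was at 1.49 with 1 and 14 against 6 and 14 UMIs. Of 25 collecting duct transcription factors the median was 0.02, of 10 potassium channels -0.18, of 7 AP-2 factors and cofactors -0.26, of 21 genes of tubule diameter and cystic disease -0.13, and of 14 immediate early and stress genes 0.11. No list had a called gene.

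The study also tied genes to open chromatin of principal cells with an AP-2 motif. Of 546 such genes 277 were tested, with 157 below and 120 above 0 and a median of -0.06, and 5 lower and 4 higher at an unadjusted p under 0.05. Over all genes tested 1.46% were lower and 1.21% higher at that p, so the list lay near the background. *Arhgef37*, a guanine nucleotide exchange factor gene, had 11 and 54 UMIs in controls and 5 and 5 in knockouts, at -1.65 ± 0.58, and at -2.40 without the 42 nuclei. In *Aqp3*-positive nuclei it was at -1.64 (unadjusted p = 0.00077). *Gramd1b*, a carrier of cholesterol between membranes, had 16 and 228 against 8 and 26 UMIs, at -1.55 ± 0.58. *Ranbp3l* had 8 and 228 against 10 and 17 UMIs, at -1.66 ± 0.64, and both knockout mice lay above control 1 in CPM. Without control 2 it was at 0.11. *Fstl1*, a secreted glycoprotein, had 6 and 18 against 12 and 23 UMIs, at 1.42 ± 0.55, with 0% of its UMIs in the 42 nuclei.

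Markers of other cell types in these nuclei also varied over the mice. All 4 connecting tubule markers tested were above 0, and their median was 2.57. For 3 of them the unadjusted p was under 0.05, where 1.21% of all genes were higher at that p. Without the 42 nuclei the median was 0.90 and 0 of the 4 had such a p in edgeR. *Calb1*, calbindin-D28k, was one of these, with 12 and 15 against 24 and 40 UMIs, and it went from 1.82 to 0.77 without the 42. Of 9 intercalated markers 7 were above 0, with a median of 0.37, and of 9 principal cell markers 3 were, with a median of -0.16. The summed intercalated list stood at 2698 and 1433 CPM in controls and at 2740 and 2501 CPM in knockouts. Of 5 thin limb markers 4 were above 0, with a median of 1.43, and of 6 inner medullary markers all 6 were, with a median of 1.03. The summed thin limb list stood at 640 and 1805 CPM in controls and at 7007 and 490 CPM in knockouts, so knockout 1 stood apart. There *Cryab* was at 5186 CPM, with 184 and 101 of its 316 UMIs in 1 nucleus each, and *Akr1b3* at 1559. *Bst1*, *Sptssb* and *Epha7* of the same list were at 0 in knockout 1. The inner medullary list stood at 2445 CPM in knockout 1, against 233 and 844 in controls and 235 in knockout 2. It shares *Akr1b3* and *Slc14a2* with the thin limb list, so the 2 lists are not independent. *Upk3a*, a uroplakin of the urothelium, had 12 UMIs in knockout 1, 10 of them in 1 nucleus, and none in the other mice. The proximal tubule list, at 17681, 6465, 18953 and 5196 CPM in control 1, control 2, knockout 1 and knockout 2, did not follow genotype. The part of these cells in the changes above was not tested.

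Whether genotype acted differently in *Aqp3*-low nuclei than in the others was tested as a difference of the changes. Against *Aqp3*-positive nuclei 2 of 10981 genes were called (0.0182%), *S100g* and *Rorb*, and 281 had an unadjusted p under 0.05. For *S100g* the difference was 3.66 ± 0.57 (adjusted p = 1.86e-06). For *Rorb*, a nuclear receptor, it was -4.68 ± 0.91 (adjusted p = 0.00153). In the *Aqp3*-low nuclei 78.3% of the *S100g* UMIs lay in the 42. All 36 *Rorb* UMIs of the *Aqp3*-low nuclei lay there too. Without these nuclei 0 genes were called by edgeR, with *S100g* at 1.48 and *Rorb* at -4.90. The remaining *Aqp3*-low nuclei held no *Rorb* UMI, so its value rests on the *Aqp3*-positive nuclei alone. Against proximal tubule nuclei 0 of 18426 genes were called (0%), and 268 had an unadjusted p under 0.05. DESeq2 was not run on these differences.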

How the data were processed

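RNA of nuclei from kidney tissue enriched for medulla was counted in 4 libraries, 1 per mouse, with 2 mice per group. The deposited files hold raw UMI counts, made by the authors with the 10x Chromium 3' kit and, per the submitters' processing notes, Cell Ranger 3.0.2 on mm10, for 31053 genes in 6794880 barcodes per library, with no normalization. The libraries held 22179410 to 44964099 UMIs. From each, the 10000 barcodes with most UMIs were taken, and those with more than 500 and fewer than 4000 genes and under 5% mitochondrial UMIs were kept. Nuclei were then selected on the 7 genes given above. *Aqp3*-positive nuclei had at least 2 *Aqp3* UMIs with a sodium channel UMI, at most 2 *Slc8a1* UMIs and no limit on *Frmpd4*. Connecting tubule nuclei had at least 3 *Slc8a1* UMIs with a sodium channel UMI. Proximal tubule nuclei had at least 5 UMIs over *Slc34a1*, *Slc27a2*, *Slc13a3*, *Slc5a12* and *Acsm2*. In each class *Slc12a1* and *Slc12a3* were at most 2 UMIs each. The members and the gene lists were chosen with earlier results of these data known.

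UMIs were summed per mouse, so nuclei are not replicates. Each gene that reached 10 UMIs in all went into edgeR 4.0.16 (R 4.3.3), by TMM normalization and the quasi-likelihood test on genotype, with Benjamini-Hochberg adjustment over all genes tested. A difference of changes was tested as an interaction of genotype and class. All p-values come from 2 mice per group and rest on the model. Shares were compared with an exact two-sided permutation test. Doublets were called by likeness to simulated mixtures of nuclei, at an expected rate that grew with the number of nuclei, and were kept. The fits were tested on simulated data. Levels are given in CPM over the summed UMIs of the same nuclei.

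Genes named are *Tfap2a*, *Tfap2b*, *Wnt9b*, *Alcam* and the markers, up to 10 genes per direction with the smallest p among those with an unadjusted p under 0.05 and the same direction in each of the 4 knockout and control pairings, up to 4 per list at that p, and genes called in a difference of changes. Genes ranked between classes needed at least 100 UMIs, and 10 CPM was added to each level. 1 gene that this rule names is not reported here. Other genes were named after their values were seen. Alternatives were DESeq2 1.42.0, other scalings and filters, other limits of the rule, called doublets left out and each mouse left out. A further 4 were added after seeing the data.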

Additional observations from a re-analysis of the deposited data

Results flagged for a closer look

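For 2 genes the change with genotype differed between *Aqp3*-low and *Aqp3*-positive nuclei by edgeR's interaction test. For *S100g* the difference was 3.66 on the log2 scale (adjusted p = 1.86e-06), with 9, 14, 79 and 64 UMIs in the *Aqp3*-low nuclei of control 1, control 2, knockout 1 and knockout 2 and 109, 127, 240 and 9 in the *Aqp3*-positive nuclei. Of the latter, single nuclei held 32, 80, 58 and 2, and nuclei with 3 or more intercalated UMIs held 4, 6, 99 and 3. For *Rorb* the difference was -4.68 (adjusted p = 0.00153), with 4, 21, 0 and 11 UMIs in *Aqp3*-low and 6, 0, 10 and 40 in *Aqp3*-positive nuclei. All UMIs of *Rorb* in both classes lay in nuclei with 3 or more intercalated UMIs. Without the 42 such *Aqp3*-low nuclei the differences were 1.48 and -4.90 with an adjusted p of 1 for both. The value of *Rorb* then rests on the *Aqp3*-positive nuclei alone, since no *Rorb* UMI is left in the *Aqp3*-low nuclei. Over all alternatives the difference of *S100g* ranged from 1.48 to 5.45 and that of *Rorb* from -11.08 to -2.79, and the part of intercalated cells in the difference was not tested otherwise.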

How the results depend on the processing

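The number of genes called lower stayed at 0 under all alternatives run. The number called higher, 0 as reported, was 3 with *Aqp3* at 0, 1 with DESeq2, 1 with mitochondrial UMIs under 1%, 5 with no filter on low counts, 3 without called doublets, and 0 to 7 when 1 mouse was left out (4 without control 1, 0 without control 2, 5 without knockout 1 and 7 without knockout 2). The replicate number as a block gave 4 higher and 0 lower. In the *Aqp3*-low nuclei same-numbered mice did not deviate together (correlation -0.05 over 2304 genes), and no source used here says that a number marks a shared litter or day. Libraries with the number 1 were both larger, though, with 42138345 and 44964099 UMIs against 24998797 and 22179410, and had more of the proximal list in these nuclei, at 17681 and 18953 CPM against 6465 and 5196. A batch shared by number is therefore possible and was not tested beyond this block. The 2 genes called for the difference against *Aqp3*-positive nuclei became 0 with at least 2 sodium channel UMIs, 0 without the 42 nuclei with intercalated markers, both added after seeing the data, and 0 to 10 when a mouse was left out. Against proximal tubule the 0 genes became 3 without TMM and 1 to 4 when a mouse was left out. The share ratio of -1.0 ranged from -1.77 to 0.77 when a mouse was left out. The cause was not tested.

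Of the values per gene, 653 kept direction and side of the threshold, 27 passed it, 8 fell short of it and 26 turned in direction. With *Aqp3* at 0 *Tfap2a* was at 0.0004 and *Wnt9b* at -0.51. With *Frmpd4* of at least 1 *Wnt9b* was at -0.19 and *Snhg11* at 0.73, with *Frmpd4* of at least 3 *Rorb* was at 0.011, and with DESeq2 *Wnt9b* was at -0.21. With mitochondrial UMIs under 1% *Alcam* was at 0.45, *Kif26b* at 0.088 and *Rorb* at 0.092. With at least 2 sodium channel UMIs *Wnt9b* was at -0.82, *Alcam* at 0.50 and *Rorb* at 1.09. Without the 42 nuclei *Alcam* was at 0.077, and without nuclei with *Trpv5* or *Egfem1*, left out after seeing the data, *Kif26b* was at 0.10. With 1 mouse left out *Tfap2a* ranged from -0.57 to 0.18, *Tfap2b* from -0.20 to 0.95, *Wnt9b* from -0.90 to 0.74, *Mgat4c* from -0.79 to 1.74, *Col26a1* from -0.45 to 0.84, *Kif26b* from -0.61 to 0.21, *Ranbp3l* from -2.31 to 0.11 and *Rorb* from -6.34 to 0.56. Summed depths of 51524 to 97962 UMIs in 3 of the mice limit what could be called, and most named genes had fewer than 100 UMIs.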

Other observations

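Nuclei that met every limit but had no sodium channel UMI numbered 691. They had *Aqp2* at 4494 CPM, and 126 of them (18.2%) had 3 or more intercalated UMIs, so the intercalated markers were found on both sides of the sodium channel limit.

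In knockout 1, *Cryab*, a small heat shock protein gene, had 316 UMIs over the 27 *Aqp3*-low nuclei, of which 184 lay in 1 nucleus and 101 in the next. *Akr1b3*, which encodes the aldose reductase that makes sorbitol in the medulla, had 95 UMIs there, 59 of them in 1 nucleus.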
